A study of Mus musculus with 6 samples.

Results

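The heavy chain V genes described here are all those outside the IGHV1 family: 15 families with 59 genes seen in the contigs, of 112 IGHV genes in all. They were chosen by name, from every assembled IGH contig (the sequence of 1 rearranged transcript of 1 cell) whose V gene starts with IGHV but not with IGHV1-, and the contig of most UMIs was taken per cell. Contigs marked productive, with an open reading frame, were kept apart from the rest, which are called nonproductive here. Non-IGHV1 genes were found in 6018 of 12794 cells with a productive heavy chain and in 2140 of 3045 cells with a nonproductive one. IGHV5 and IGHV2, whose 19 genes lie nearest to the D segments, are called proximal and are set beside the other families.

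In a developing B cell the heavy chain is joined first, a D segment to a J segment and then a V segment to DJ. A productive chain pairs with the surrogate light chain, the cell divides as a large pre-B cell, then rests and joins a light chain. A nonproductive joint on 1 allele leaves the other allele to be tried, so nonproductive joints carry the V choice of recombination with less selection for the protein. IGHV5-2, known as VH81X, is the textbook proximal gene: it is recombined very often in pro-B cells and rarely kept as a functional heavy chain.

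The cells were B220+IgM-IgD- bone marrow cells depleted of T, NK and myeloid cells, sorted to hold Hardy fractions A, B, C, C' and D, from mice of the strain label C57BL/6. The 3 groups were wild type at 12 weeks (young), wild type at 100 weeks (aged) and nfkbie-/-nfkbib-/-nfkbia+/- at 12 weeks (IkB-deficient), which lacks 2 inhibitors of NF-kB and 1 copy of another. Each group gave 1 droplet library of gene expression and 1 of V(D)J contigs from the same cells, both from the pooled marrow of 2 mice. With 1 library per group no test between groups was possible, and the intervals in square brackets (95%, exact binomial for shares, conditional binomial for ratios) cover counting error only.

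The V(D)J files held 8965, 7169 and 9078 cells (young, aged, IkB-deficient, the order used throughout), and 8954, 7101 and 9064 of these were joined to the expression library by barcode. A productive heavy chain with a V gene was found in 7311, 4366 and 1117 cells, so the IkB-deficient values are the least precise. The B cell gene Cd79a had a UMI in 99.6%, 99.3% and 98.9% of the cells with a productive non-IGHV1 chain. Between 71 and 87 V(D)J barcodes were shared by each pair of libraries, with the same heavy chain in 0 of them. Y-linked transcripts marked the young pool and Xist the IkB-deficient pool, while the aged pool held both kinds of cell, so sex and group cannot be told apart between the 12-week pools. In the IkB-deficient library the V gene of the contig, the most abundant Ighv transcript and the first CDR3 bases disagreed for several genes, as given further on, and D and J usage differed too. Whether this library's heavy chain locus has the sequence of the labelled strain was not tested, and a locus of another origin cannot be told apart from the genotype. Each IkB-deficient to young ratio of V genes, the genes at 0 and the positions along the locus carry that limit. The gate removed IgM+ cells, which limits how many light-chain cells can be seen.

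Joints of IGHV5-2 with a stop codon and joints without one look as follows, 5′ to 3′ over the CDR3, from the contig tables. They show nonproductive and productive joints of the same gene. Capitals in the first 3 mark the stop codon, for the joint with most UMIs among those with an in-frame stop in each library. Capitals in the last 2 mark the V-encoded start of the largest IGHV5-2 clone of the aged and of the IkB-deficient library.
IGHV5-2 nonproductive, young: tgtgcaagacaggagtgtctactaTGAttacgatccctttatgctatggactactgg
IGHV5-2 nonproductive, aged: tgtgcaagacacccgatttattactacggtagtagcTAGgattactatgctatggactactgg
IGHV5-2 nonproductive, IkB-deficient: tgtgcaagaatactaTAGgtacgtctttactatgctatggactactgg
IGHV5-2 clone, aged: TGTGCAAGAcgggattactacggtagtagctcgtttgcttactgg
IGHV5-2 clone, IkB-deficient: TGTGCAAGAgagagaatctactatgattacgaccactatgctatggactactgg
All 5 joints start with the same 9 bases. A stop codon lay within the CDR3 in 44.3%, 44.2% and 48.6% of the nonproductive non-IGHV1 contigs that had a CDR3 call, and in 43.1%, 37.2% and 38.7% of those of IGHV5-2.

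Among productive heavy chains the share of non-IGHV1 families was 43.0% [41.9 to 44.1] for young, 48.4% [46.9 to 49.9] for aged and 68.0% [65.2 to 70.8] for IkB-deficient cells. The proximal families had 13.2% [12.5 to 14.0], 17.7% [16.6 to 18.8] and 26.9% [24.3 to 29.6], and their 3 intervals do not overlap. Against young, this proximal share was 1.34 times as high in aged cells [1.21 to 1.47] and 2.03 times as high with IkB deficiency [1.78 to 2.31]. The other families together had 29.8%, 30.7% and 41.2%, so their ratio to young was 1.03 for aged [0.964 to 1.11] and 1.38 for IkB-deficient cells [1.25 to 1.53]. Beyond counting error, the proximal set was higher in the aged library and both sets were higher in the IkB-deficient one.

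The aged value depended on which aged cells were counted. Aged cells with Xist transcripts only had a productive proximal share of 14.3% [12.1 to 16.7] (135 of 943), and aged cells with Y-linked transcripts only had 18.0% [16.3 to 19.9] (320 of 1775). Over the young share these are 1.08 times [0.897 to 1.30] and 1.36 times. The intervals of the 2 kinds of aged cell overlap, and the interval of the first ratio includes 1. With Xist cells only, the aged to young ratio was 1.16 for IGHV5 and 0.945 for IGHV2, against 1.32 and 1.36 with all aged cells. In aged cells with neither kind of transcript the share was 19.2% [17.2 to 21.3].

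**Figure D1:**
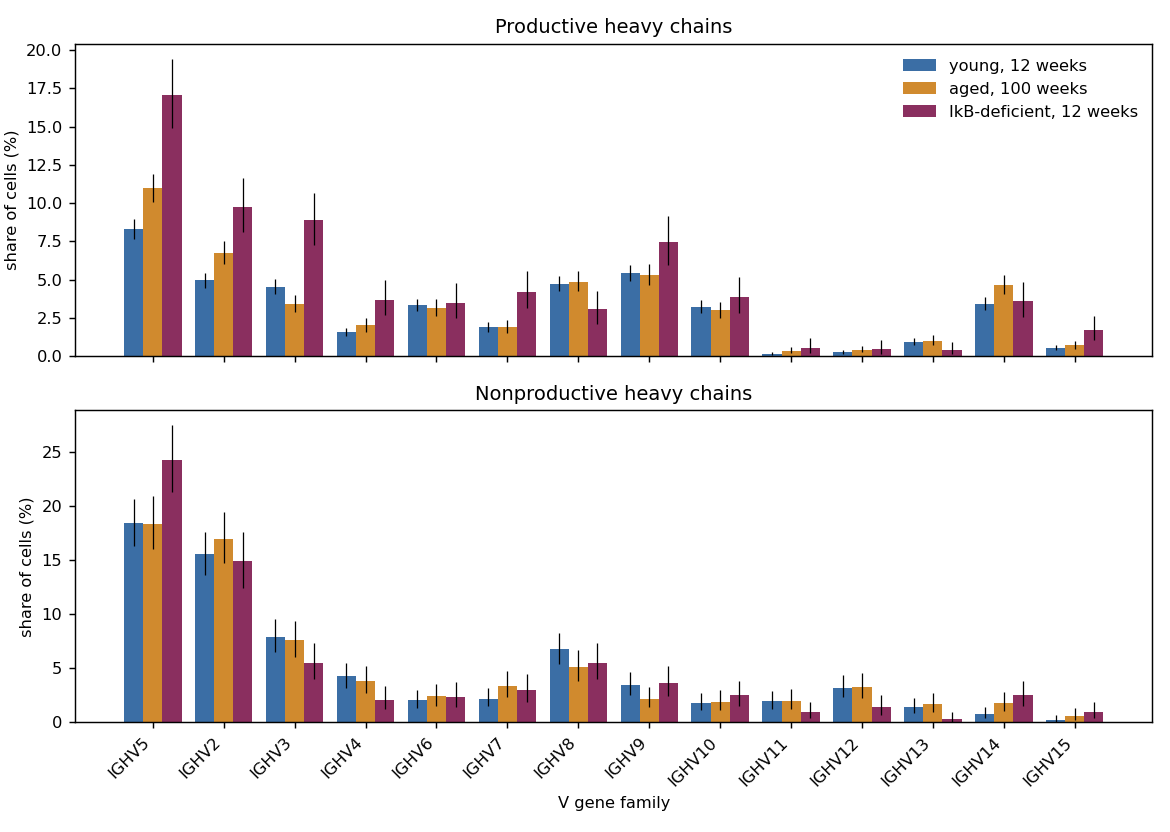
Share of cells (%) with a heavy chain of each V family, productive above and nonproductive below, for the 3 libraries. Bars are shares of all cells with a chain of that kind and lines are 95% exact binomial intervals (counting error). IGHV5 and IGHV2 step up from young to aged to IkB-deficient among productive chains, while among nonproductive chains young and aged are near each other in both.

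By family, IGHV5 was the most used of the group in every library, with 8.29%, 11.0% and 17.1% of productive chains. IGHV2 had 4.94%, 6.71% and 9.76%. IGHV3 had 4.51%, 3.39% and 8.86%, which puts aged below young and the mutant above it (ratios 0.751 [0.614 to 0.914] and 1.96 [1.55 to 2.47]). IGHV4 (1.55%, 1.99%, 3.67%), IGHV7 (1.87%, 1.90%, 4.21%) and IGHV15 (0.520%, 0.710%, 1.70%) had IkB-deficient to young ratios of 2.37 [1.62 to 3.42], 2.25 [1.58 to 3.15] and 3.27 [1.78 to 5.82]. IGHV14 was higher in aged cells (3.39%, 4.63%, 3.58%), at 1.36 times [1.13 to 1.65] young. IGHV8, whose genes are scattered among the distal IGHV1 genes, was lower in IkB-deficient cells (4.69%, 4.86%, 3.04%; ratio to young 0.649 [0.442 to 0.924]). IGHV6, IGHV10 and IGHV13 had intervals of the IkB-deficient to young ratio that include 1. IGHV11 and IGHV12, families known for B-1 cell antibodies to phosphatidylcholine, were rare, with 10, 15 and 6 and with 17, 18 and 5 productive cells. Productive IGHV16 was seen in 2 aged cells, and 0 of 7311 young cells allow a share of up to 0.0410%.

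The nonproductive share of non-IGHV1 families was near the same level in the 3 libraries. Non-IGHV1 families made up 70.1% [67.5 to 72.6], 71.1% [68.1 to 73.9] and 69.6% [66.2 to 72.9] of them. The proximal share was 33.9%, 35.3% and 39.1%, and the ratio to young was 1.04 for aged [0.902 to 1.20] and 1.15 for IkB-deficient cells [0.991 to 1.34]. Higher nonproductive shares in the mutant were seen for IGHV5, with 18.4%, 18.4% and 24.3% (IkB-deficient to young ratio 1.32 [1.08 to 1.60]), and for IGHV14, with 10, 18 and 19 cells (3.16 [1.40 to 7.61]). Of IGHV5, IGHV2, IGHV3 and IGHV4, whose productive shares were all higher in IkB-deficient cells, IGHV4 had a lower nonproductive share there (4.23% in young against 2.09%, ratio 0.493 [0.263 to 0.874]). The IGHV3 share was lower there too, with 101 of 1276 young and 42 of 767 IkB-deficient cells. IGHV2 had 198 and 114 cells of the same totals. The setting of these contigs differed between libraries: 73.8%, 48.2% and 5.81% of the nonproductive non-IGHV1 contigs lay in a cell that also held a productive heavy chain. Within cells that held no productive chain the non-IGHV1 share was 64.1%, 67.3% and 69.6%. Nonproductive contigs also had fewer UMIs, a median of 3 to 5 against 14 to 23 for productive ones.

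The share among productive chains over the share among nonproductive chains of the same library compares the 2 kinds of chain by family. The 2 kinds differ in more than their reading frame: the nonproductive contigs without a CDR3 call were 47.6%, 39.7% and 27.9% for IGHV1 and 13.4%, 11.9% and 8.0% (24 of 300) for the proximal families, and the part of this in the ratios was not tested. IGHV1 had a higher productive than nonproductive share in wild type (1.90 [1.71 to 2.12] and 1.78 [1.58 to 2.02]) while the IkB-deficient ratio was 1.05 [0.890 to 1.25]. The proximal ratio was 0.390 [0.348 to 0.438], 0.5005 [0.441 to 0.569] and 0.687 [0.583 to 0.809], below 1 in each library and with no overlap between the 3 intervals. IGHV11 (0.0698, 0.172, 0.589) and IGHV12 (0.0724, 0.125, 0.312) had the lowest ratios in wild type among families with at least 20 cells, which leaves out IGHV16 (0 productive and 2 nonproductive young cells). IGHV14 (4.33, 2.58, 1.45) and IGHV9 (1.57, 2.42, 2.04) were above 1 in all libraries, although the IkB-deficient interval of IGHV14 includes 1 [0.818 to 2.64]. So were IGHV6 (1.62, 1.31, 1.49), IGHV10 (1.78, 1.58, 1.55) and IGHV15 (2.21, 1.19, 1.86), whose aged and IkB-deficient intervals include 1. IGHV3 was below 1 in wild type (0.570 and 0.447) and above 1 in IkB-deficient cells (1.62 [1.12 to 2.38]).

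**Figure D2:**
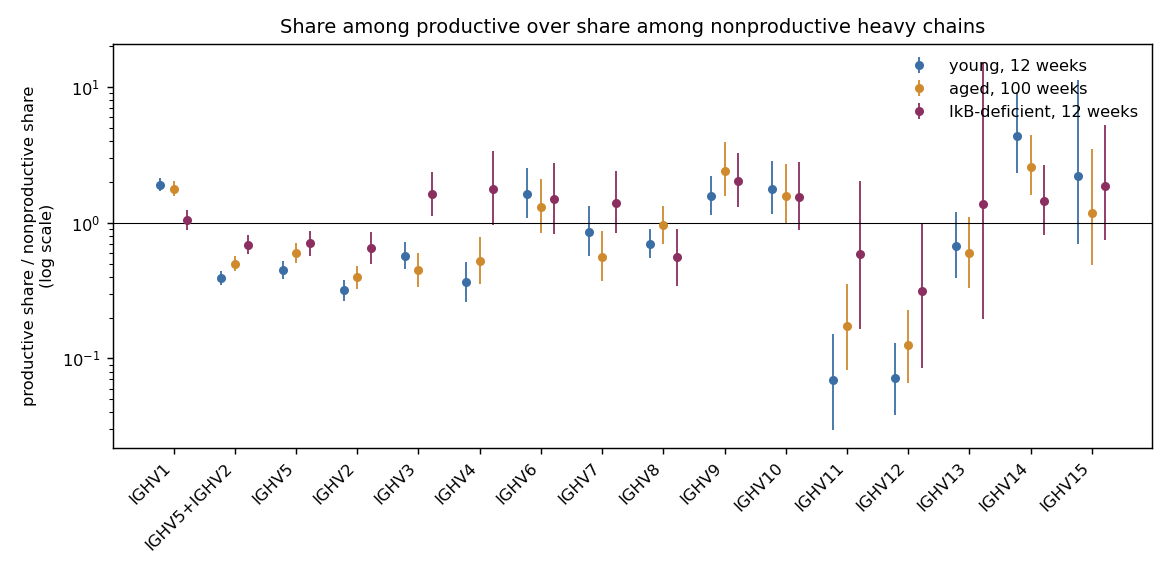
Share among productive chains divided by share among nonproductive chains of the same library, by V family, on a log axis. Points are ratios and lines 95% conditional binomial intervals, and the horizontal line marks 1. IGHV5 and IGHV2 are below 1 in the 3 libraries and nearest to it in IkB-deficient cells, at 0.705 and 0.657.

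Positions are those of RefSeq on GRCm38.p6, the assembly of the mm10 build that the submitters' processing notes name, and all 112 genes were matched. The IGHV genes lie on chromosome 12 on the high-coordinate side of the D segments, and IGHV5-2 is the nearest, at chr12:113578504-113578990, 51.7 kb from the nearest annotated D segment. The first 250 kb hold 13 genes, all of IGHV5 or IGHV2. This stretch gave 9.97%, 13.9% and 21.2% of productive chains but 31.8%, 32.1% and 34.9% of nonproductive ones. The median distance of a non-IGHV1 gene from the D segments was 614, 533 and 438 kb in productive chains and 370, 370 and 209 kb in nonproductive chains.

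**Figure D3:**
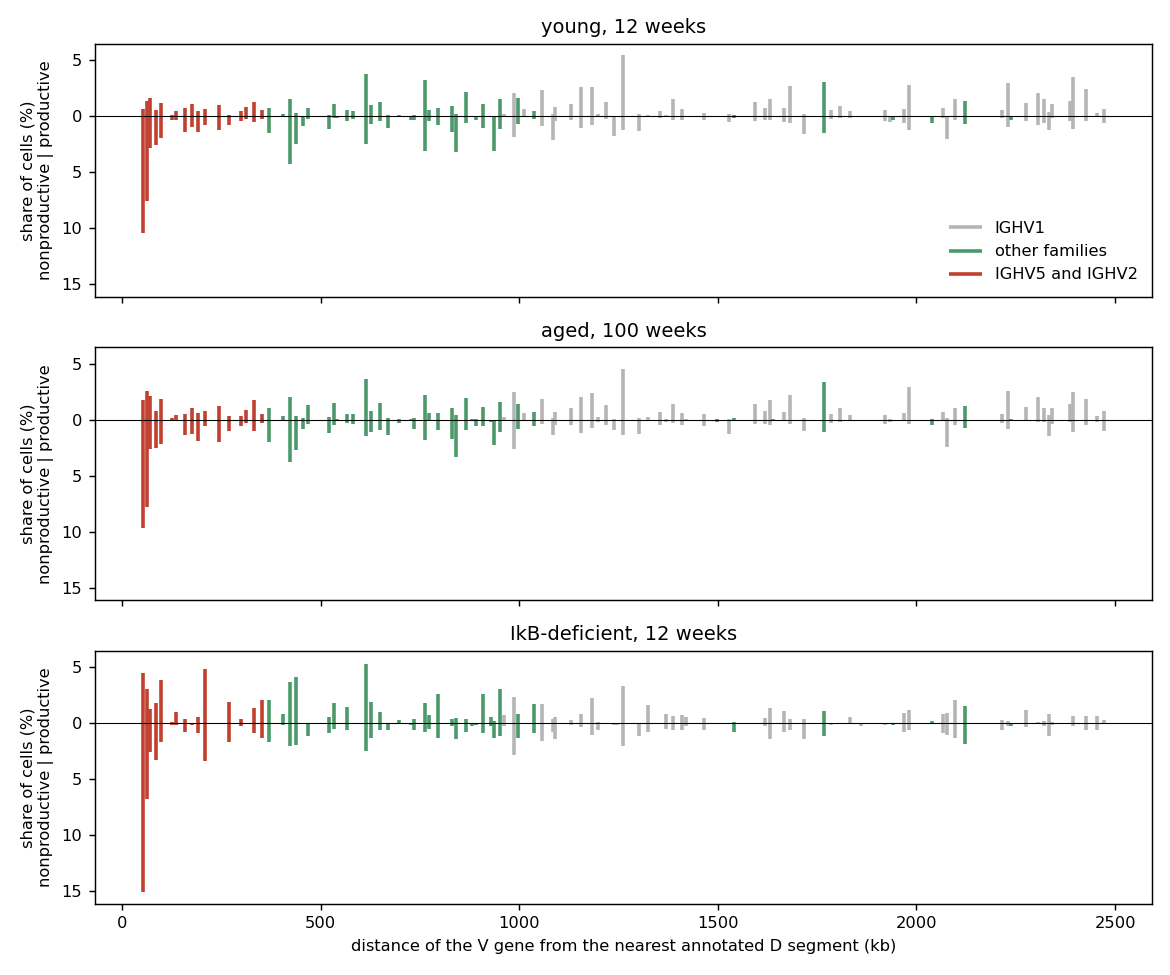
Share of cells (%) for each V gene against its distance (kb) from the nearest annotated D segment, productive upward and nonproductive downward, 1 panel per library. Red lines are IGHV5 and IGHV2 genes, green lines the other non-IGHV1 families and grey lines IGHV1. The longest downward lines are those of IGHV5-2 and IGHV2-2 at the left, at 10.4% and 7.602% in young cells.

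IGHV5-2 had the lowest productive use relative to its nonproductive use among the 5 genes nearest to D, in each library. It was the V gene of 51 of 7311, 78 of 4366 and 50 of 1117 productive chains (0.698% [0.520 to 0.916], 1.79% [1.41 to 2.22] and 4.48% [3.34 to 5.86]). Relative to young the share was 2.56 times as high in aged [1.78 to 3.72] and 6.42 times as high in IkB-deficient cells [4.26 to 9.67]. Among nonproductive chains it had 133, 97 and 116 cells (10.4%, 9.68% and 15.1%), the highest of any non-IGHV1 gene in each library, with an IkB-deficient to young ratio of 1.45 [1.12 to 1.88]. Its productive share over its nonproductive share was 0.0669, 0.185 and 0.296.

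IGHV2-2, the next gene (chr12:113588267-113588700), followed the same order with smaller differences. It had 103, 113 and 34 productive cells (1.41%, 2.59% and 3.04%), so the ratio to young was 1.84 for aged [1.39 to 2.42] and 2.16 for IkB-deficient cells [1.42 to 3.21], and 97, 78 and 52 nonproductive cells (7.602%, 7.78% and 6.78%). IGHV5-6 had 1.22%, 1.86% and 3.85% of productive chains, and IGHV2-3 had 0.574%, 0.825% and 1.79%. IGHV5-4, which lies between IGHV2-2 and IGHV2-3, did not follow them: it had 1.63%, 2.13% and 1.25%, and its IkB-deficient to young ratio of 0.770 [0.409 to 1.34] includes 1.

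Over the 39 non-IGHV1 genes with at least 20 cells in the 2 libraries, 7 were more than 1.5-fold higher in aged than in young productive chains and 0 were lower, where over all IGHV genes 11.2% were higher and 0 lower. With aged cells of Y-linked transcripts only, 12 were higher and 2 lower, and with those of Xist only 5 were lower. For these smaller sets of aged cells the share over all IGHV genes was not counted. With all aged cells the median aged to young ratio of the 39 non-IGHV1 genes was 1.08, against 1.03 over all IGHV genes. The 5 highest were IGHV5-2, IGHV2-2, IGHV2-6-8 (1.81 [0.763 to 4.35]), IGHV12-3 (1.77 [0.862 to 3.66]) and IGHV14-2 (1.70 [1.16 to 2.50]). IGHV3-6 was the lowest, with 235 of 7311 and 95 of 4366 cells (0.677 [0.528 to 0.863]).

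In IkB-deficient against young productive chains, 20 of 39 genes were higher and 11 lower, where 30.4% of all IGHV genes were higher and 44.3% lower. The median ratio was 1.62, against 0.861 over all IGHV genes. Among nonproductive chains 23 non-IGHV1 genes had enough cells: 2 were higher and 2 lower in aged (5.88% and 14.7% of all IGHV genes), and 4 were higher and 7 lower in IkB-deficient cells (21.2% and 33.3%). Among productive chains the IkB-deficient to young ratio was highest for IGHV3-1, with 21 young and 46 IkB-deficient cells (14.3 times [8.38 to 25.3]). Next came IGHV2-6-8 (11.5 times [5.38 to 25.5]), IGHV5-9-1 (7.68 times [5.09 to 11.6]) and IGHV5-2. IGHV9-3, the most used non-IGHV1 gene in the 3 libraries, had 3.79%, 3.64% and 5.28% of productive chains. IGHV8-8 (3.10%, 3.37%, 1.07%) and IGHV3-6 (3.21%, 2.18%, 1.79%) were lower in IkB-deficient cells. The 5 genes among the 11 with 0 of 1117 IkB-deficient cells were IGHV5-12 (82 young cells, at least 4.18-fold lower, against a floor of 3 counts), IGHV2-9-1 (72, at least 3.67-fold lower), IGHV5-16 (61, at least 3.11-fold lower), IGHV14-2 (57, at least 2.90-fold lower) and IGHV9-2 (34, at least 1.73-fold lower). By contig, IGHV5 and IGHV2 thus held both genes with high ratios and genes at 0 in the IkB-deficient library.

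The expression library gives a second reading of the V gene, since each cell's own heavy chain transcript is also counted there. The most abundant Ighv transcript was that of the contig's gene in 98.5% and 98.2% of young and aged cells with a productive non-IGHV1 chain, but in 69.9% [66.4 to 73.1] of IkB-deficient ones. For the family, the match was 98.7%, 98.4% and 95.4%. In cells with a productive IGHV1 chain the gene matched in 94.9%, 94.6% and 55.6% [50.3 to 60.9]. The lower IkB-deficient match was therefore not particular to the non-IGHV1 genes. In IkB-deficient cells with an IGHV3-1 contig the top transcript was IGHV3-2 in 41 of 46 cells and IGHV3-1 in 3. With IGHV4-1 it was IGHV4-2 in 36 of 41 cells, and with IGHV2-6-8 it was IGHV2-6 in 18 of 21. With IGHV5-9 it was IGHV5-6 in 10 of 10 and with IGHV14-4 it was IGHV14-1 in 10 of 10. IGHV5-2 matched in 48 of 50 cells, IGHV2-2 in 33 of 33 and IGHV9-3 in 54 of 58. IGHV5-9-1 matched in 17 of 53. The IkB-deficient ratios given above for IGHV3-1, IGHV2-6-8 and IGHV5-9-1 therefore rest on gene calls that most of the same cells' transcripts do not share. For IGHV4 the ratio above is that of the family, and the family matched in 37 of 41 cells. The contig and transcript calls of IGHV5-2, IGHV2-2 and of the families did match. With the V gene taken from the transcript, 16 non-IGHV1 genes were higher and 10 lower in IkB-deficient than in young. Of these, 13 and 8 were the same as by contig. The share over all IGHV genes was not counted for this call. The proximal ratio by transcript was 1.91.

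**Figure D4:**
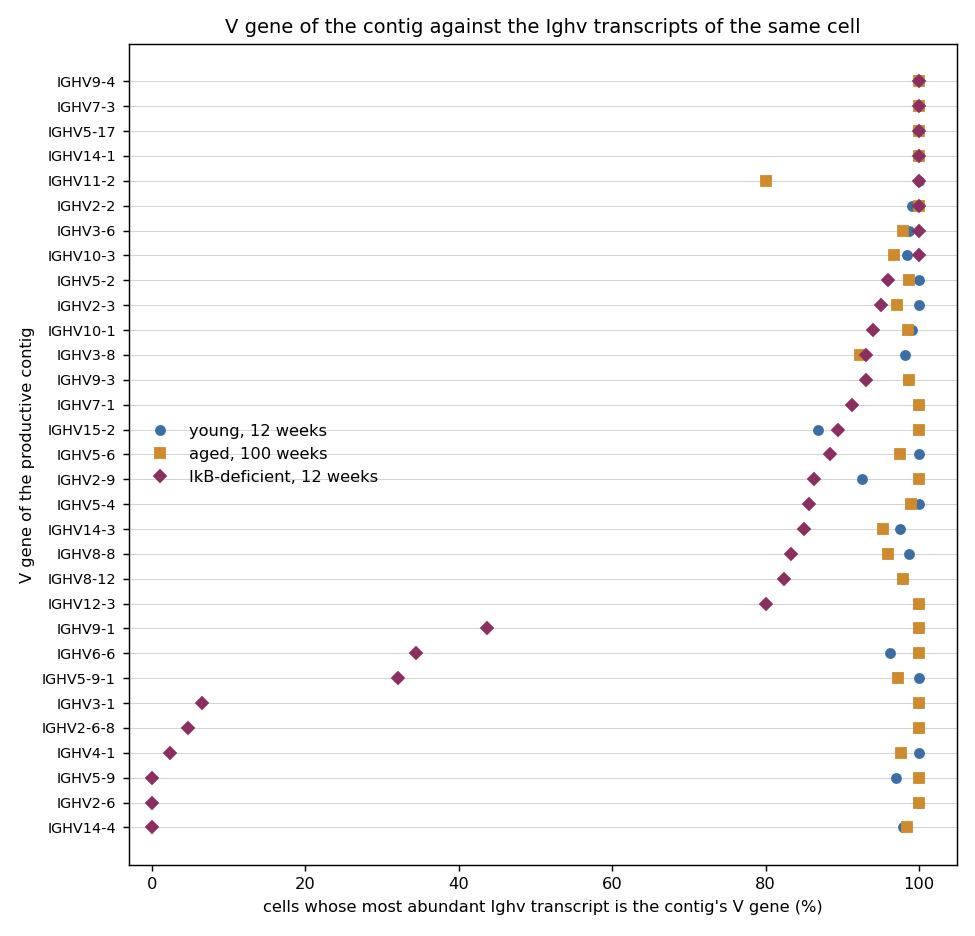
Percent of cells with a productive contig of each V gene whose most abundant Ighv transcript in the expression library is that same gene, for genes with at least 5 cells in young and IkB-deficient libraries. Each point is 1 gene in 1 library. Young and aged points lie at 80.0% or above for every gene shown, while 9 IkB-deficient points lie under 50%.

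The first 9 bases of the CDR3, counted from 1 at its first base, are mostly encoded by the V segment. The most frequent 9 bases of a gene were the same in aged as in young for 38 of 38 non-IGHV1 genes with at least 5 distinct rearrangements in both, and in IkB-deficient for 23 of 30. For IGHV1 genes this held for 35 of 35 and 22 of 25, so genes with other bases were found in both V groups. Shown are 4 of the 7 genes that differ, each by 1 base, given in capitals. IGHV5-17 was chosen after its values were seen.
IGHV5-9-1 young and aged: tgtAcaaga
IGHV5-9-1 IkB-deficient: tgtGcaaga
IGHV2-9 young and aged: tgtgccaAa
IGHV2-9 IkB-deficient: tgtgccaGa
IGHV5-17 young and aged: tgtgcaagG
IGHV5-17 IkB-deficient: tgtgcaagA
IGHV2-6-8 young and aged: tgtgccagT
IGHV2-6-8 IkB-deficient: tgtgccagA
For IGHV5-9-1 (A4G) the IkB-deficient form was in 34 of 53 rearrangements there and in 0 of 45 young ones. For IGHV2-9 (A8G) it was in 18 of 23 and 1 of 40, for IGHV5-17 (G9A) in 14 of 14 and 4 of 90, and for IGHV2-6-8 (T9A) in 17 of 21 and 1 of 12. IGHV5-2, IGHV2-2, IGHV4-1 and IGHV9-3 kept the wild-type 9 bases. The genes with other bases and those with another top transcript overlapped only in part. IGHV5-17 (15 of 15 cells), IGHV2-9 (19 of 22) and IGHV14-1 (9 of 9) matched by transcript and differed in these bases, while IGHV3-1, IGHV4-1 and IGHV5-9 had the young bases and another top transcript.

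UMIs of some genes without a contig were found in the IkB-deficient expression library. IGHV5-12 had 440 UMIs and IGHV9-2 had 182 UMIs in IkB-deficient cells whose contig named another V gene, while IGHV14-2 had 48, IGHV2-9-1 had 12 and IGHV5-16 had 0. In that library IGHV5-12 was the most abundant Ighv transcript in 12 of 53 cells with an IGHV5-9-1 contig. It was so in 2 of 14 cells with an IGHV5-4 contig, and IGHV9-2 was so in 6 of 16 with an IGHV9-1 contig. The counts of 0 given above for IGHV5-12 and IGHV9-2 therefore hold for the contig call only. In the 7936 IkB-deficient cells without a V contig, IGHV5-12 had 6 UMIs and IGHV9-2 had 5. Whether the UMIs in cells with another V contig are reads of a similar V gene or free RNA was not tested.

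The joined D and J segments also differed between libraries. Productive non-IGHV1 chains used IGHJ4, the J segment farthest from D, in 36.5% [34.8 to 38.2], 24.1% [22.3 to 26.0] and 14.9% [12.4 to 17.6] of cells, and IGHJ2 in 21.2%, 28.4% and 35.5%. IGHV1 chains had IGHJ4 in 28.7%, 20.1% and 15.7%, so the young intervals of the 2 V groups do not overlap [27.4 to 30.1 for IGHV1] and the IkB-deficient ones do [12.1 to 19.9]. In nonproductive non-IGHV1 chains IGHJ4 had 24.6%, 21.6% and 15.7%. IGHD1-1, the most used D segment of wild type, was called in 38.9%, 34.0% and 16.2% of the productive non-IGHV1 chains, and IGHD2-8 in 5.60%, 5.44% and 16.6%. The median CDR3 was 15, 14 and 14 amino acids long. The constant gene was IGHM in at least 98.9% of these cells, and 7, 22 and 2 cells held a switched isotype.

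Clones, cells of 1 library with the same V, J and CDR3 bases, were small. Of the non-IGHV1 cells 4.20%, 7.57% and 10.8% shared their chain with another cell, and the largest clones had 3, 5 and 4 cells. For IGHV1 the shares were 4.34%, 7.86% and 6.16%. The largest aged and IkB-deficient clones of IGHV5-2 are the 2 sequences shown above, with 5 and 4 cells, all IGHM and 0 with a light chain.

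The share of cells with a light chain was near that of IGHV1 for most families. A productive light chain was found in 25.4%, 26.8% and 10.3% of cells with a non-IGHV1 chain and in 23.9%, 28.1% and 12.0% with IGHV1. The proximal families had 25.1%, 24.7% and 10.3%. Proximal usage in cells with over cells without a light chain was 1.03 [0.888 to 1.19], 0.868 [0.733 to 1.02] and 0.949 [0.632 to 1.38]. Exceptions by family were IGHV3 in aged (16.2% [10.7 to 23.2] with a light chain) and IGHV15 in young (44.7% [28.6 to 61.7], 17 of 38 cells). IGHV12 had 0 of 18 aged cells with a light chain, where 5 of 17 young cells had one.

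Cycling was read from the expression library. Each joined cell was thinned to 2000 UMIs without immunoglobulin and T cell receptor genes, and a cell was called cycling with at least 3 UMIs of 20 G2 and M phase genes such as Mki67, Top2a and Ccnb1. With a productive chain, the cycling share was 28.0%, 33.0% and 26.6% for the proximal families, 25.8%, 31.5% and 23.4% for the other families and 28.2%, 32.4% and 24.8% for IGHV1. Cells without a light chain cycled more, at 32.7%, 40.6% and 26.2% for non-IGHV1 chains against 8.21%, 7.71% and 11.0% with one. Within the young library the proximal share was 13.3% in cycling cells without a light chain, 12.9% in resting cells without one and 13.3% in resting cells with one. The same 3 states gave 18.3%, 18.0% and 16.1% in aged and 28.6%, 26.1% and 25.7% in IkB-deficient cells. In cycling cells with a light chain it was 13.8% (19 of 138), 13.6% (12 of 88) and 33.3% (4 of 12), so aged was not above young there. In resting cells with a light chain the young [11.6 to 15.1] and aged [13.8 to 18.7] intervals overlap. IGHV4 in IkB-deficient cells had 3 of 41 cells cycling (7.32% [1.54 to 19.9]).

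Cells that held only nonproductive heavy chain contigs gave a different picture. With a proximal contig, 34 of 126 young cells were cycling (26.98% [19.5 to 35.6]), 36 of 191 aged cells (18.8% [13.6 to 25.1]) and 60 of 279 IkB-deficient cells (21.5% [16.8 to 26.8]). With a contig of the other non-IGHV1 families it was 10 of 101, 18 of 148 and 17 of 221 (9.90%, 12.2% and 7.69%), and with IGHV1 12 of 128, 17 of 170 and 20 of 215 (9.38%, 10.0% and 9.30%). The proximal share was higher than both others in the 3 libraries, with intervals that do not overlap in young and IkB-deficient cells and that overlap in aged cells. IGHV5-2 alone had 28.9%, 13.2% and 24.5%, IGHV2-2 had 36.8%, 14.3% and 21.3%, and the other proximal genes had 22.6%, 24.0% and 18.9%. The aged intervals of IGHV5-2 [5.48 to 25.3], IGHV2-2 [5.43 to 28.5] and the other proximal genes [15.8 to 33.7] overlap. Put the other way, proximal genes made up 60.7%, 50.7% and 61.9% of the nonproductive contigs of cycling cells and 30.8%, 35.4% and 35.4% of those of resting cells. Cells of 1 library are not replicates, and a productive chain missed by the assembly would place a cell in this set: that was not tested. The contigs had a median of 3 UMIs with a proximal gene and of 3 to 4 with an IGHV1 gene.

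**Figure D5:**
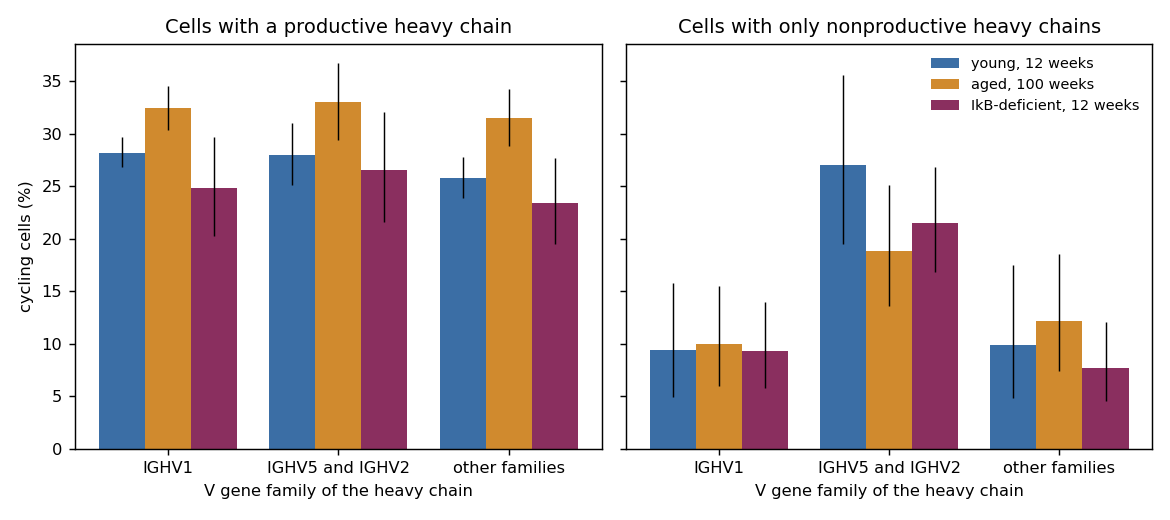
Percent of cells called cycling, for IGHV1, for IGHV5 and IGHV2 together and for the other families, in cells with a productive chain (left) and in cells with only nonproductive chains (right). Bars are shares and lines 95% exact binomial intervals. The left bars span 23.4% to 33.0%, while on the right IGHV5 and IGHV2 stand at 26.98%, 18.8% and 21.5% against 7.69% to 12.2% for the rest.

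Gene counts summed over the same cells, without thinning and with no threshold per cell, gave the same order. The G2 and M phase genes are those that defined the cycling call, so their values are not separate support for it. The list holds 20 genes, and only those with enough UMIs in the sum of both cell sets were compared. A gene high in the proximal cells could meet that sum through them alone. Of the G2 and M phase genes with at least 100 UMIs in the 2 cell sets together, 14 of 14 in young, 15 of 15 in aged and 19 of 19 in IkB-deficient cells were over 1.5-fold higher with a nonproductive proximal than with a nonproductive IGHV1 contig. Over all genes 5.49%, 3.18% and 5.95% were higher and 3.55%, 1.37% and 4.08% lower. Their median ratio was 2.97, 1.89 and 1.92, against 0.998, 1.003 and 0.986 over all genes tested. Summed over all 20 genes, without a UMI threshold, the list had 4090 and 1332 CPM (UMIs scaled to equal totals) in young. It had 2508 and 1306 in aged and 2376 and 1255 in IkB-deficient cells. Ccnb1, the cyclin of entry into mitosis, had 136 and 33.2 CPM in young, 104 and 43.3 in aged and 83.9 and 32.0 in IkB-deficient cells. Of the S phase genes that met the same threshold, 2 of 12, 7 of 12 and 12 of 13 were past 1.5-fold. Genes in a list move together in the same cells, so these are not separate observations.

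Genes of V(D)J recombination were mostly level between the same cells: 0 of 11, 0 of 11 and 1 of 12 were higher and 1, 0 and 0 lower. The 1 lower was Rag1, a subunit of the recombinase, at 151 against 237 CPM in young. Of the 9 pre-B receptor genes 0 were higher in any library, and 0, 0 and 2 were lower. The lower ones in IkB-deficient cells were the surrogate light chain genes Vpreb1, at 3109 against 4886 CPM, and Vpreb2, at 389 against 599. The 1 higher recombination gene there was the cohesin subunit Rad21, at 185 against 121. The summed pro-B markers stood at 12485, 13069 and 10738 CPM with a proximal and 14453, 15215 and 15318 with an IGHV1 contig.

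Between productive proximal and IGHV1 cells of the young library 0 genes of these lists passed 1.5-fold, while 4 did in aged cells. There Dntt, which adds bases at the joints of pro-B cells, stood at 332 against 171 CPM, Vpreb1 at 743 against 451 and Igll1, the other surrogate light chain gene, at 1102 against 717. Vpreb2 stood at 108 against 65.8. Of all genes 0.513%, 1.03% and 1.02% were over 1.5-fold higher and 0.898%, 1.1% and 0.695% lower in the 3 libraries. In IkB-deficient cells 2 passed, Dntt at 411 against 266 and the S phase gene Cdc6. No G2 and M phase gene passed 1.5-fold in any library in this comparison.

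In cells with a productive and a nonproductive heavy contig, the nonproductive one was non-IGHV1 more often when the productive one was IGHV1. In young cells it was non-IGHV1 in 78.0% [74.3 to 81.4] of 551 cells with a productive IGHV1 chain, in 66.3% [56.2 to 75.4] of 101 with a proximal chain and in 62.9% [56.7 to 68.8] of 259 with another family. Aged cells had 81.3% [76.1 to 85.8], 64.4% [50.9 to 76.4] and 68.8% [60.0 to 76.6]. The IGHV1 interval overlaps that of the proximal chains in young cells and both others in aged cells. For proximal genes alone the pattern was not seen in young cells: the nonproductive contig was proximal in 34.5%, 28.7% and 32.8%, with overlapping intervals. In aged cells it was proximal in 34.5%, 16.9% and 34.4%. IkB-deficient cells had 83.3%, 63.6% and 60.0%, from 18, 11 and 15 cells, too few to order.

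Single genes lay on both sides of an equal share. IGHV8-2 (chr12:114462290-114462589) had 0, 0 and 2 productive and 40, 23 and 10 nonproductive cells, but 24, 21 and 2 of the latter had no CDR3 call. IGHV12-3 had 17, 18 and 5 productive and 41, 33 and 11 nonproductive cells (share ratios 0.0724, 0.125 and 0.312), and IGHV11-2 had 8, 10 and 6 against 14, 12 and 7 (0.0997, 0.191 and 0.589). IGHV14-3 had 81, 64 and 20 productive and 2, 5 and 4 nonproductive cells, a ratio above 1 in each library (7.07, 2.94 and 3.43). IGHV6-3 had 159, 84 and 4 against 8, 9 and 6, with ratios of 3.47 and 2.14 in wild type and 0.458 in IkB-deficient cells. The last ratio rests on 4 and 6 cells, too few to place it. It also rests on the contig call: in IkB-deficient cells with an IGHV6-6 contig the top transcript was IGHV6-3 in 18 of 29. IGHV5-16, a proximal gene, had 61, 38 and 0 against 3, 3 and 0.

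Markers of immature or mature B cells differed between the libraries. The summed immature or mature B list (Fcer2a, Ms4a1, Cd74 and others) stood at 1266, 1586 and 7660 CPM in cells with a productive non-IGHV1 chain, and Fcer2a had a UMI in 0.159%, 0.955% and 8.32% of them. In IGHV1 cells the list stood at 1249, 2000 and 7676, and in proximal cells at 1147, 1449 and 6641. Other lists did not all move this way: the plasma cell list stood at 1203, 1018 and 1466 CPM in non-IGHV1 cells. The neutrophil lineage list stood at 0.594, 16.6 and 85.8 in non-IGHV1 cells and at 0.691, 1.44 and 2.09 in IGHV1 cells. Whether few cells carried these neutrophil UMIs was not tested. The part of these lists in the differences between libraries was not tested.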

How the data were processed

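Per the labels, marrow of 2 mice per group was pooled, sorted and run through droplet V(D)J and gene expression workflows. Cell Ranger and mm10 are named in the submitters' processing notes, and the deposited matrix headers give software version 3.0.1. The deposited values are raw counts: UMIs per gene and cell, and UMIs and reads per contig, of cells the authors had called. From these, 1 IGH contig of most UMIs per cell was taken, productive and nonproductive apart. Contigs with a chain field of Multi (17, 13 and 15) were left out. Shares have exact Clopper-Pearson intervals, ratios conditional binomial intervals, and a count of 0 a floor of 3 counts. No doublet caller was run. Cells under 2000 UMIs could not be thinned and were left out of the cycling shares (198, 253 and 31 productive non-IGHV1 cells). Unthinned calls are among the alternatives.

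Genes named are those with the 10 highest mean productive and nonproductive shares over the libraries, the 5 highest and lowest by aged and by IkB-deficient to young ratio (at least 20 cells in the 2 libraries) and by productive to nonproductive ratio in young, and the most D-proximal ones. IGHV5-9, IGHV5-17, IGHV4-2, IGHV3-2, IGHV2-6, IGHV6-6, IGHV9-1, IGHV14-1, IGHV8-12 and IGHV8-13 were named after their values were seen. The genes and lists were chosen with earlier results of these data known. The ratio intervals were tested on simulated V gene draws as deep as the libraries. Python 3.11.15, pandas 2.3.3 and scipy 1.17.1 were used. Replicates of a group were not analysed here, so no p-value is given.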

Additional observations from a re-analysis of the deposited data

Results flagged for a closer look

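IGHV3-1 was used less in productive than in nonproductive chains in young cells (share ratio 0.118 [0.0646 to 0.212]) and more in IkB-deficient cells (2.11 [1.15 to 4.06]). The difference was not tested, and the transcripts of the same IkB-deficient cells name another IGHV3 gene in 41 of 46.

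Transcripts of 3 IGHV8 genes were found in cells with no heavy chain V contig, which the usage comparisons leave out, above their level in the young library. In IkB-deficient cells without a V contig, IGHV8-8 stood at 12.3 CPM (UMIs scaled to equal totals) against 0.560 in young (805 UMIs in 652 of 7936 cells), IGHV8-12 at 8.39 against 1.52 (550 UMIs in 483 cells) and IGHV8-13 at 1.80 against 0.0800 (118 UMIs in 114 cells). No cell held more than 6 of these UMIs. The flag took only genes far above their young level, and the other IGHV8 genes went both ways. In the same cells IGHV8-6 stood at 0.473 CPM against 5.52 in young, IGHV8-2 at 0.366 against 1.36 and IGHV8-4 at 0.183 against 0.480. IGHV8-11 stood at 2.98 against 1.84 and IGHV8-5 at 1.10 against 0.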

How the results depend on the processing

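No paired analysis was possible because each group had 1 library. Of 460 values recomputed under other settings, 452 stayed within the counting interval of the reported value or, for counts of genes, within 1.5 times of it. With aged cells that had Xist transcripts only, the aged to young productive ratio was 1.08 for the proximal families, 1.04 for all non-IGHV1 families, 1.16 for IGHV5 and 0.945 for IGHV2, which lies on the other side of 1. The number of non-IGHV1 genes over 1.5-fold higher in aged was 12 with Y-linked cells only. The number lower was 5 with Xist cells only, 2 with Y-linked cells only and 1 without barcodes found in 2 libraries. With the V gene taken from the top Ighv transcript, the proximal IkB-deficient ratio kept its direction. By that call 16 genes were higher and 10 lower, 13 and 8 of them among those reported. For these gene counts under other settings the share over all IGHV genes was not counted. In cells with only nonproductive chains the proximal share in cycling over resting cells was 1.97, 1.43 and 1.75, and over the settings it ranged from 1.36 to 2.17, 1.22 to 1.57 and 1.33 to 1.88. The settings on cells with 1 productive heavy contig, barcodes found in 2 libraries, the top transcript and the sex-linked split were chosen after seeing the data. The IkB-deficient productive depth, 1117 cells, limits what can be said of any gene under about 20 cells.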
